A study of Mus musculus with 15 samples.

Results

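Gene expression in eyes of adult Egr1-/- mice was set against that of an adult wild type. The comparison takes 3 of the 15 libraries of the series, those titled adult: 1 wild type and 2 labelled Egr1-/-, called labelled knockout 1 and 2 here by the replicate numbers in their titles. All 3 carry the strain label BALB/c. The null allele came from C57BL/6 mice of Taconic Farms and had been crossed to BALB/c for 5 generations in one series of crosses and 4 in another, and the labels do not say which series gave the adults. Eyelids were part of the eyes collected, per the protocols. The other libraries are 4 of newborn eyes, 2 of them wild type and 2 labelled Egr1-/-, and 8 of single eyes at day 3, which are not used here beyond the choice of a transcript per gene. The series asks what Egr1 does for the eyelid. The labels give no age beyond adult and name no animals, so the libraries may be of 1 mouse or several, and every spread below is a spread between libraries, which may be technical, and so are the spreads behind the p-values.

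Egr1 is a zinc finger transcription factor of the immediate-early class, switched on within minutes by growth factors, injury or light. It binds GC-rich sites and in turn drives other genes, including its own corepressors of the Nab family. The eye with its lids holds neural retina, lens and cornea together with the conjunctiva, a mucosal epithelium, and the lid skin, whose outer cells turn into a cornified layer made of keratin and of proteins cross-linked beneath the membrane. Kallikrein proteases cut the corneodesmosomes that hold that layer together. Small proline-rich (Sprr) proteins and late cornified envelope (Lce) proteins are among its cross-linked building blocks.

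Reads in transcripts came to 24429707 in the wild type and to 23667059 and 24061422 in labelled knockouts 1 and 2. Levels are given as CPM, the read count scaled by library size, and 1 CPM stood for 18.5 to 19.7 reads. Where 3 values stand together, they are those of the wild type, labelled knockout 1 and labelled knockout 2, in that order. The targeted gene went against its label: Egr1 (chromosome 18) was at 37.6 CPM in the wild type and 294.9 and 215 CPM in the labelled knockouts. The fitted log2 difference was 2.76 ± 0.36 (SE, n = 2 against 1), with an adjusted p of 0.131 by edgeR's quasi-likelihood test. Reads were deposited per transcript, not per exon, and the labels do not say which part the allele lacks, so the counts do not show whether a working protein was made. Directions below follow the labels.

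The labelled knockouts were not alike. Between them, 1395 of the 15244 genes measured at 1 CPM or more in some adult library (9.15%) differed at least 2-fold, and 1250 (8.20%) of labelled knockout 1 and 758 (4.97%) of labelled knockout 2 did so from the wild type. Labelled knockout 1 stood apart in its tissue markers. Krt12, the keratin of the corneal epithelium, was at 7297 CPM in the wild type and 3.04 and 4500.1 CPM in the labelled knockouts, and Slurp1, secreted by the same epithelium, at 148, 0.507 and 89.2 CPM. Both were thus nearly missing from that library. The 35 genes of the lens list summed to 59277, 12281 and 78048 CPM in the wild type, labelled knockout 1 and labelled knockout 2, so lens genes were also low there. Some secretory gland genes went the other way, with the odorant-binding protein Obp1a at 0.313, 1026 and 4.42 CPM and the prolactin-inducible protein Pip at 0.261, 221 and 0.917 CPM. The lacrimal list as a whole differed less and summed to 1734, 2739 and 2080 CPM. Of its 13 measured genes, 8 of them at 1 CPM or more in the wild type, 9 were at least 2-fold higher in labelled knockout 1 and 2 lower. The shares over all genes were 5.82% and 2.33%. Labelled knockout 2 had less skeletal muscle, whose 51 genes summed to 9014, 9628 and 3279.8 CPM. Xist was read in all 3 libraries and Y-linked genes were below 1 CPM. In whole tissue, fewer cells of a type and less RNA per cell cannot be told apart. The part that these differences between libraries have in the results below was not tested beyond the values without each library.

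**Figure D1:**
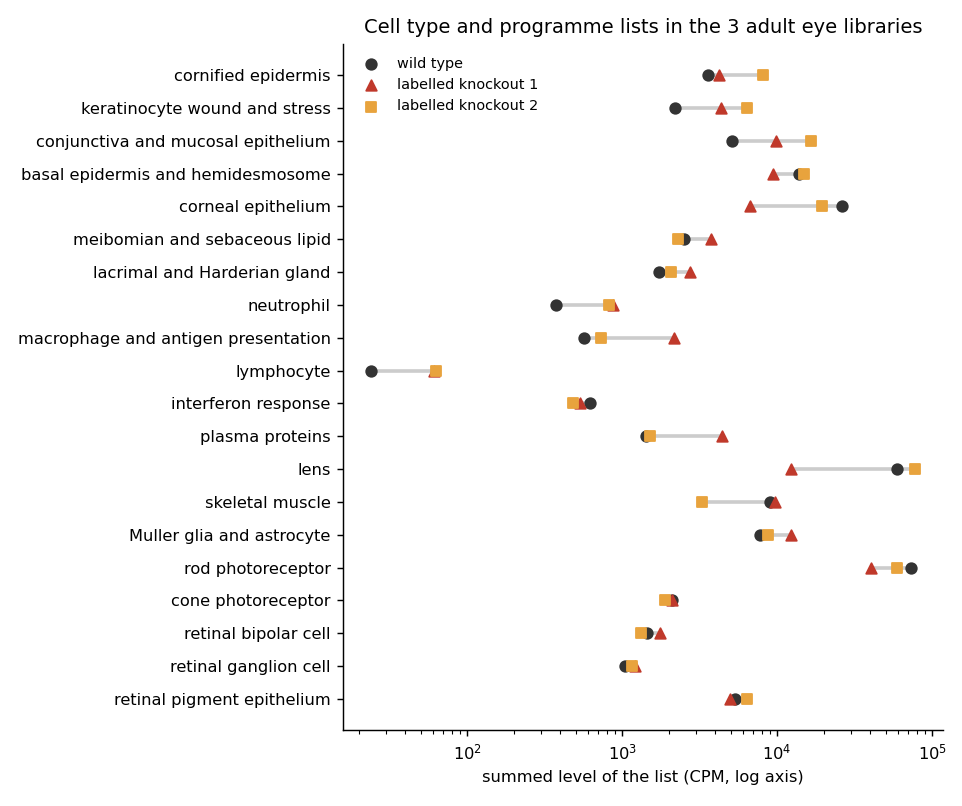
Summed level of 20 gene lists in each adult eye library (CPM, log axis), 1 symbol per library and a grey line over their range. The cornified, wound, mucosal, neutrophil and lymphocyte lists have both labelled knockouts to the right of the wild type. So do the lacrimal, macrophage, plasma protein, Müller glia and retinal ganglion cell lists. Lens and corneal epithelium are low in labelled knockout 1 and skeletal muscle is low in labelled knockout 2.

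With 1 wild type, no gene passed the test. Of 17592 genes tested with edgeR over the adult and newborn libraries together, 0 (0%) had an adjusted p under 0.05. The smallest adjusted p was 0.0653, for Crabp2, and 506 genes had an unadjusted p under 0.05. The Wald test of DESeq2 called 95 genes higher and 7 lower. Left without labelled knockout 1, edgeR called 43 genes higher and 6 lower, and without labelled knockout 2 it called 164 higher and 41 lower, with the lone libraries assumed to vary like the newborn groups. An exact permutation of 2 against 1 cannot go below a p of 0.333. What follows is therefore a description: genes are named where both labelled knockouts lie on the same side of the wild type, at least 2-fold away, with reads under 3 set to 3.

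By that rule 250 of 14904 genes (1.68%) were higher in both labelled knockouts and 50 (0.335%) were lower. The wild type had no read for 16 of the 250 and 1 to 3 reads for 22. Since a gene silent in the wild type can only be higher, the count was also taken over the 14680 genes at 1 CPM or more in the wild type, of which 110 (0.749%) were higher. Both labelled knockouts lay above the wild type by any amount in 4410 genes (28.9% of those measured) and below it in 4309 (28.3%). The large differences were upward: 121 genes were at least 4-fold higher in both, 78 at least 8-fold and 46 at least 16-fold, against 10 at least 4-fold lower and 4 at least 8-fold lower. Of the 250 higher genes, 57 were in the lists of the cornified epidermis or of wounded and stressed keratinocytes. These lists held 40 and 44 of the 14904 callable genes and were drawn up with earlier results of these data known.

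**Figure D2:**
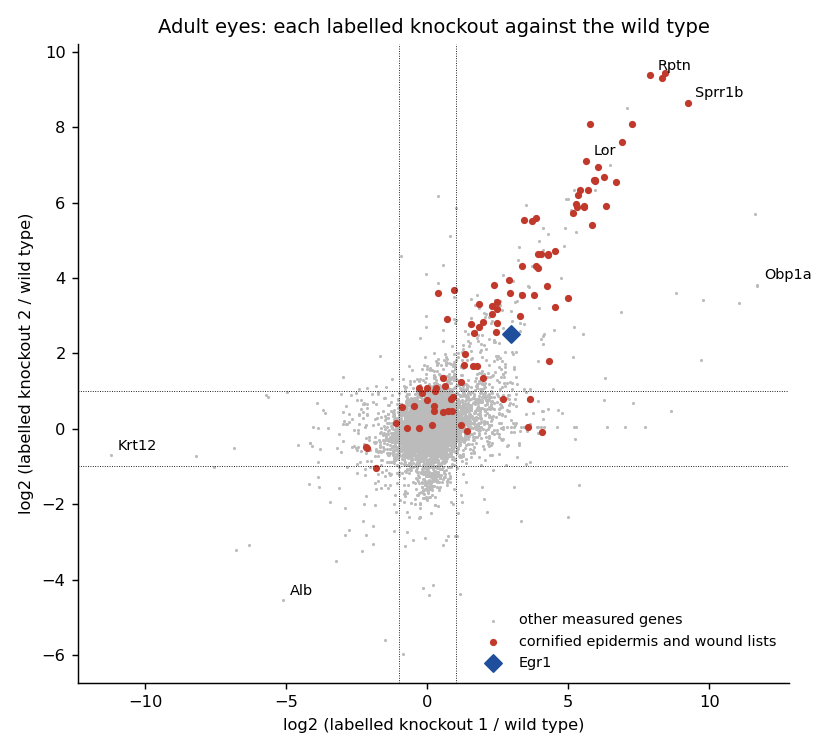
Log2 ratio to the wild type in labelled knockout 1 (x axis) and labelled knockout 2 (y axis) for 15244 genes, with dotted lines at 2-fold. Genes of the cornified epidermis and wound lists run along the diagonal up to ratios over 300-fold in both libraries. Krt12 and Obp1a depart from the wild type mainly in labelled knockout 1.

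Genes of the cornified epidermis, the barrier layer of the skin, were mostly higher in both labelled knockouts. Of its 40 members that could be called, 30 were higher in both labelled knockouts, beside 1.68% of all callable genes, and none was lower. Among the 28 at 1 CPM or more in the wild type, 18 were higher, beside 0.749% of such genes. The median log2 ratio over its 46 measured members was 3.39 in labelled knockout 1 and 4.09 in labelled knockout 2, beside 0.0070 and -0.0026 over all measured genes. The count was 38 with labelled knockout 2 alone and 30 with labelled knockout 1 alone. No member passed the edgeR test after adjustment, and 29 of the 46 had an unadjusted p under 0.05. The 46 include members that reached 1 CPM in labelled knockouts alone and could hardly lie below the wild type. The medians and the 29 are thus partly set by that minimum, and neither was taken over the 28.

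The keratins of the upper epidermis were far above the wild type. Krt1 was at 5.85 CPM in the wild type and 448 and 604 CPM in the labelled knockouts, 76.6- and 103-fold higher. Its partner Krt10, with which it forms the filaments of suprabasal cells, was at 23.3, 382 and 584 CPM. Krt14, the keratin of basal cells and the single one of 19 basal and hemidesmosome genes to be called (beside 1.68% of all), was at 515, 1171 and 1625 CPM. For these 3 genes labelled knockout 2 was the higher of the pair and both lay above the wild type. Krt5, the partner of Krt14 that corneal basal cells also make, was at 7584, 3269.9 and 6355 CPM and so lay below the wild type in both. Several envelope and corneodesmosome genes were higher too. Cdsn, the corneodesmosin cut by kallikreins when cells are shed, was at 1.15 CPM in the wild type and 138 and 224 CPM in the labelled knockouts. Rptn (repetin) and Lor (loricrin), both cross-linked into the envelope, were at 0.313, 74.9 and 208 CPM and at 1.04, 52.3 and 144 CPM. Krtdap, secreted by differentiating keratinocytes, was at 0.783, 48.9 and 76.2 CPM. These 4 genes had between 6 and 22 reads in the wild type and at least 964 in each labelled knockout. Dmkn, which is secreted as well, was 61.1- and 95.8-fold higher.

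Not all genes of the layer followed. Ivl, which encodes the envelope protein involucrin, was at 2.40, 2.69 and 2.59 CPM, and Casp14, a protease of cornifying cells, at 3.76, 2.28 and 3.83 CPM. Asprv1 and Calml3, which together held most of the list's reads in the wild type, were at 1299, 705 and 1954 CPM and at 1733, 806 and 1935 CPM: labelled knockout 1 was below the wild type and labelled knockout 2 above it. The summed level of the list therefore differed less than its median did, with 3564, 4232 and 8091 CPM in the 3 libraries. Dsg1a, a desmosomal cadherin that is also in the corneal list, was at 64.8, 14.3 and 46.4 CPM. Other desmosome genes were not called: Dsg3 was at 114, 117 and 214 CPM and Dsc3 at 202, 67.9 and 183 CPM, while Dsc1, a cadherin of the upper epidermis, was higher at 0.418, 8.16 and 10.3 CPM.

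Some of the genes that were higher lay in blocks, though most did not. When all coding genes were put in the order of RefSeq's GRCm38.p6 annotation, which served for gene order and for promoters only since the files use mm8, 8 runs of at least 4 called genes with no more than 5 coding genes between neighbours were found. They held 45 of the 250 higher genes (18%), and the other 205 lay outside them. On chromosome 7 the 8 consecutive kallikrein genes from Klk14 to Klk7 were all higher. Klk14 was at 0.261 CPM in the wild type and 90.7 and 181 CPM in the labelled knockouts, 348- and 692-fold higher. Klk10, with the most reads of the run in both labelled knockouts, was at 5.54, 258 and 324 CPM, and Klk9 at 0.261, 23.2 and 33.2 CPM. Klk12 had 1 read in the wild type and was at 0.0522, 9.68 and 12.6 CPM, a ratio of both labelled knockouts to the wild type of 213 with a 95% counting interval from 37.96 to 8419. Genes next to the run were not called. The next gene on one side, Klk6, was at 1.31, 1.98 and 1.29 CPM, and on the other side Ctu1, a tRNA-modifying enzyme, was at 23.03, 16.6 and 17.4 CPM. Spink5, the inhibitor of skin kallikreins encoded on chromosome 18, was higher too, at 26.3, 145 and 182 CPM.

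On chromosome 3, where Sprr and Lce genes lie together in the epidermal differentiation complex, 8 of 9 consecutive coding genes from Sprr2d to Sprr1a were higher. Sprr1a had the most reads in each library, at 13.9 CPM in the wild type and 538 and 874 CPM in the labelled knockouts. Sprr3, which mucosal epithelia make as well, was at 0.627, 203 and 393 CPM, 323- and 628-fold above the wild type. Sprr1b had 2 reads in the wild type and was at 0.104, 95.3 and 62.6 CPM, a ratio of 761 with a 95% counting interval from 210.5 to 6287. Sprr2h and Sprr2d had no read in the wild type and were at least 104- and 93.3-fold and at least 81.2- and 60.2-fold higher against a floor of 3 reads. Sprr2 genes resemble each other closely, so that reads may have been divided among them. The exception in the run, Sprr2e, was at 0, 1.98 and 0.270 CPM, too low in labelled knockout 2 to be called. Further along, 9 of 17 coding genes from Kprp to Rptn were called. Lce3b, with 1 read in the wild type, was at 0.0522, 23.9 and 42.5 CPM, a ratio of 630.4 with a 95% counting interval from 113 to 24921. Crct1, another small gene of the complex, was at 0.627, 24.9 and 36.7 CPM. The Lce1 genes stayed low: of those measured, Lce1a1 had the most reads in labelled knockout 2 and was at 0.0522, 0.811 and 2.21 CPM. Tchh (trichohyalin), which follows Rptn, was at 2.66, 3.80 and 3.45 CPM, and S100a11 and S100a10 further on were at 113, 88.6 and 176.5 CPM and at 216, 163.3 and 288.5 CPM.

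The other 5 runs held 4 called genes each. On chromosome 2 the cytokine genes Il1f8, Il1f9, Il1f6 and Il1f5 were consecutive and all higher. On chromosome 1 they were Serpinb12, Serpinb3a, Serpinb3b and Serpinb2, which encode clade B protease inhibitors, and on chromosome 7 Sbsn, Dmkn and Krtdap with the B cell gene Cd22. Another on chromosome 7 held Lypd5, Kcnn4 and Plaur, the urokinase receptor, and one on chromosome 17 held Cdsn and its neighbour Psors1c2 (at 0.0522, 7.55 and 9.65 CPM, 1 read in the wild type). By chromosome, 3.87% of callable genes on chromosome 3 and 2.69% on chromosome 7 were higher, beside 1.68% of all. These were the largest shares, and those of the other chromosomes ran from 0.707% to 2.17%. Among 84 callable genes within 50 coding genes of Egr1 on either side, 1 was higher and none was lower, near the 1.68% and 0.335% of all genes. The higher gene was Slc23a1, a vitamin C transporter, at 1.41, 4.56 and 2.86 CPM.

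**Figure D3:**
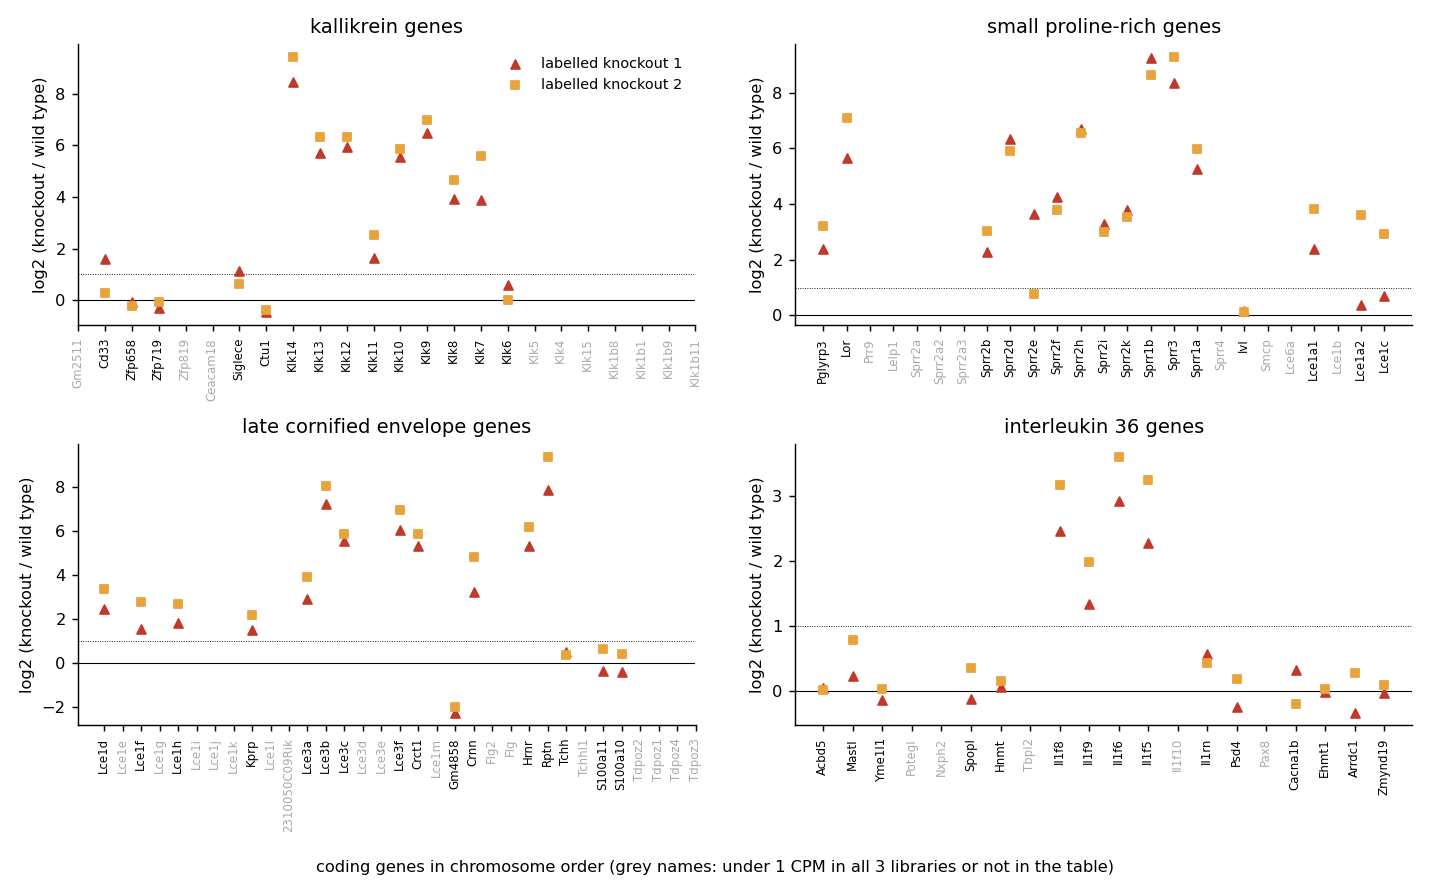
Log2 ratio to the wild type in each labelled knockout (y axis) of consecutive coding genes in 4 regions, with 8 genes on either side of the called run. Dotted lines are at 2-fold and grey names are genes under 1 CPM in all 3 libraries or absent from the table. The kallikrein run starts at Klk14 and ends before Klk6, and Ivl lies near 0 beside the Sprr run.

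Promoters of these genes were read from RefSeq (GRCm38.p6), which listed 199 promoters for 171 of the 250 higher genes. Each spans 250 bases before to 50 after a transcription start. Both strands were searched for TGANTCA, called the AP-1 letters here, and for GCGNGGGCG, the core of the Egr site. The site of the AP-1 factors Fos and Jun has C or G at N, while a match here may have any base there. The AP-1 letters were in 26.1% of the promoters of higher genes, in 5.77% of the 13347 promoters of measured genes and in 7.81% of all 32851 promoters of the table. The Egr letters were in 3.02%, 9.90% and 5.55%. Of 51 promoters of lower genes, 13.7% held the AP-1 letters and 1.96% the Egr letters. These shares are descriptions of the windows and say nothing of binding, and base composition was not compared. The 250 bases before the start are shown for the 6 genes with the largest ratios that have exactly 1 promoter in the table, 5′ to 3′ on the gene's strand, with matches to TGANTCA in capitals. Of these, 3 hold the AP-1 letters in this window (Sprr1b, Rptn and Sprr2h) and 3 do not (Klk14, Sprr3 and Lce3b), and none holds the Egr letters. They lie at chr3:92438780-92439029 (minus strand) for Sprr1b, chr3:93393449-93393698 (plus) for Rptn, chr3:92385435-92385684 (plus) for Sprr2h, chr7:43690168-43690417 (plus) for Klk14, chr3:92458721-92458970 (minus) for Sprr3 and chr3:92932729-92932978 (plus) for Lce3b.
Sprr1b: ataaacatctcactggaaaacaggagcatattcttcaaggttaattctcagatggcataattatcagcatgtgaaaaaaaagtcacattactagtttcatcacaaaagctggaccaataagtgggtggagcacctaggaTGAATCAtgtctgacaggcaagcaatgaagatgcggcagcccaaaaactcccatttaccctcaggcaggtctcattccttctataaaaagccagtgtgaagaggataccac
Rptn: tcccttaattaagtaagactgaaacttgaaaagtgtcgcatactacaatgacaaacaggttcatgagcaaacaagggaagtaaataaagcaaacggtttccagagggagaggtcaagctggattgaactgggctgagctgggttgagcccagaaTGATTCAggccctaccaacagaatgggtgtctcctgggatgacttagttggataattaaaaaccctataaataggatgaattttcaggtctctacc
Sprr2h: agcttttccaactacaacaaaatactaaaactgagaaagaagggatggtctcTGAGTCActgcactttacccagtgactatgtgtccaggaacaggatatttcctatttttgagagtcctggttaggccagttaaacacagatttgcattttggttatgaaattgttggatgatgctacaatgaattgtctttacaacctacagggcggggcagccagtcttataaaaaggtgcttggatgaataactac
Klk14: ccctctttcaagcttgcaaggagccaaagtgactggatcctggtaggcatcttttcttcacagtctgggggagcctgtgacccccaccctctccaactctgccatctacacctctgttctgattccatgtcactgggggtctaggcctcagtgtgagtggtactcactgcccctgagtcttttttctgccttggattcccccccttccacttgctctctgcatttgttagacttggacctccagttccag
Sprr3: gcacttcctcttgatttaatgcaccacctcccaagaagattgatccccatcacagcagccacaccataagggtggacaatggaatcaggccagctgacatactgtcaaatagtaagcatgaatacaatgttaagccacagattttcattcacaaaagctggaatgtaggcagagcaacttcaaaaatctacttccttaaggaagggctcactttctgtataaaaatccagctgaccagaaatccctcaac
Lce3b: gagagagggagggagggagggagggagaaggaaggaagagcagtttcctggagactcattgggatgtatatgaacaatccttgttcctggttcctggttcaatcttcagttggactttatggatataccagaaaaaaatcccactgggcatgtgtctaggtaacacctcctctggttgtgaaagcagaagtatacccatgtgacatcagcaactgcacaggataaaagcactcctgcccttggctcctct
Their matches begin at -111 in Sprr1b (TGAATCA), -96 in Rptn (TGATTCA) and -198 in Sprr2h (TGAGTCA), counted from the annotated start. The match in Sprr2h alone has C or G at N.

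Many genes that keratinocytes make when wounded or inflamed were higher as well. Of 44 callable members of that list, 27 were higher and 1 lower, beside 1.68% and 0.335% of all callable genes. Of the 27 at 1 CPM or more in the wild type 11 were higher, beside 0.749%. The median log2 ratios over 49 measured members were 2.47 and 1.98. These medians are partly set by the minimum, since some of the 49 reached 1 CPM in labelled knockouts alone. Counts of higher members were 32 with labelled knockout 2 alone and 33 with labelled knockout 1 alone. Krt16, a keratin of wounded and psoriatic skin, was at 2.56 CPM in the wild type and 146 and 109 CPM in the labelled knockouts. Krt6a and Krt6b, its usual partners, were nearer the wild type, at 1056, 1298 and 2237 CPM and at 664, 805 and 1325 CPM, and Krt17 was at 139, 256 and 193 CPM. S100a8 and S100a9, the subunits of calprotectin made by stressed keratinocytes and neutrophils, were at 0.209, 4.76 and 5.45 CPM and at 1.10, 21.1 and 26.7 CPM. Slpi, an inhibitor of neutrophil elastase, was at 1.25, 16.4 and 56.7 CPM. Serpinb3a, a clade B serpin of skin, was at 22.6 CPM in the wild type and 229 and 446 CPM in the labelled knockouts. Interleukin 36 genes are the cytokine branch of this list. Il1f9 (interleukin 36 gamma) was at 13.3, 33.8 and 52.6 CPM, Il1f6 (alpha) at 0.679, 5.17 and 8.25 CPM, and Il1f5, the receptor antagonist, at 1.15, 5.58 and 10.9 CPM. Agonists and antagonist were thus all at least 2-fold above the wild type in each labelled knockout. The defensin Defb4 had no read in the wild type and was at 1.67 and 7.33 CPM in the labelled knockouts. Krt75, a keratin of the hair follicle companion layer, was the lower member, at 24.02, 6.79 and 11.6 CPM.

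In the list of mucosal epithelium of the conjunctiva, keratins were among the genes called. Of 18 callable genes, 3 were higher (beside 1.68% of all): Krt13, Krt4 and Sprr3, which the wound list also holds. Of the 17 at 1 CPM or more in the wild type 2 were, Krt13 and Krt4 (beside 0.749%). Above the wild type in both were 12 of 19 measured, beside 28.9% of all genes. At least 2-fold higher were 3 in labelled knockout 1 and 9 in labelled knockout 2, beside 5.82% and 2.96% of all genes. Krt13 was at 747 CPM in the wild type and 3169 and 6157 CPM in the labelled knockouts, and its partner Krt4 at 767, 2629 and 4058 CPM. Labelled knockout 2 was above labelled knockout 1 for both. Goblet cell genes did not share this in labelled knockout 1: the gel mucin Muc5ac was at 512, 513 and 1099 CPM and the trefoil peptide Tff1 at 17.5, 17.2 and 52.7 CPM. In the corneal epithelium 1 of 15 genes was called, Lypd2, lower in both at 550.0, 2.89 and 271 CPM, beside 0.335% of all callable genes. Below the wild type in both lay 10 of 15, beside 28.3% of all genes. Aldh3a1, the abundant dehydrogenase of the corneal epithelium, was at 5278, 836 and 3795 CPM, and Tkt (transketolase) at 2232, 553 and 1238 CPM. In labelled knockout 2 these values were 1.39- to 2.03-fold below the wild type.

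Markers of immune cells differed in unlike ways. Among neutrophil genes, 9 of 16 callable were higher (beside 1.68% of all) and none lower, but of the 9 at 1 CPM or more in the wild type 2 were, Ltf and Csf3r (beside 0.749%). Levels were low. Csf3r, the receptor for granulocyte growth factor, was at 1.62, 8.26 and 5.66 CPM, and Saa3, a serum amyloid made in inflamed tissue, had 1 read in the wild type and was at 0.0522, 4.51 and 4.53 CPM. The granule gene Ltf (lactoferrin), which the lacrimal gland makes too, was at 227, 666 and 488 CPM. Mpo, which defines neutrophil precursors, was below 1 CPM in all 3 libraries. Macrophage and antigen presentation genes were above the wild type in both in 30 of 35 cases, beside 28.9% of all genes. At least 2-fold higher in both were 4 of 33 callable, beside 1.68% of all. Of the 30 at 1 CPM or more in the wild type 1 was, beside 0.749%. The size differed between the libraries: 34 of 35 were at least 2-fold above the wild type in labelled knockout 1, beside 5.82% of all genes, and 4 in labelled knockout 2, beside 2.96%. The list summed to 566, 2156 and 727 CPM. Lyz2, the macrophage lysozyme, was at 45.2, 373 and 71.4 CPM, and C1qa, a complement subunit, at 32.2, 147 and 33.5 CPM. Lymphocyte genes were above the wild type in both labelled knockouts in 11 of 13 measured, beside 28.9% of all genes. The wild type reached 1 CPM for 4 of the 13, so that count is largely set by the minimum. Of 11 callable 6 were higher, beside 1.68% of all. Of the 4 at 1 CPM or more in the wild type 1 was called, Igj (beside 0.749%), so the other 5 calls passed the minimum through the labelled knockouts. Igj, the joining chain of secreted antibodies, was at 8.98, 20.9 and 36.5 CPM. The T cell gene Cd4 was at 0.522, 5.07 and 3.13 CPM.

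Interferon response genes leaned the other way. None of 32 callable genes was higher and 2 were lower, beside 1.68% and 0.335% of all callable genes. Below the wild type in both were 18 of 33 measured, beside 28.3% of all measured genes. Oas2, a sensor of double-stranded RNA, was at 10.3 CPM in the wild type and 2.28 and 2.97 CPM in the labelled knockouts, 4.51- and 3.47-fold lower. Ifi44 was at 14.1, 5.47 and 6.25 CPM and Isg15, a ubiquitin-like protein, at 13.4, 5.83 and 7.495 CPM. Apol9a and Apol9b, apolipoprotein L genes that resemble each other and may divide reads, were at 4.65, 1.01 and 1.995 CPM and at 2.30, 0.659 and 0.755 CPM. Irf7, a transcription factor of the response, was at 67.5, 29.2 and 48.8 CPM. The list was not low as a block, since 3 of 33 genes were above the wild type in both.

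The other genes lower in both labelled knockouts belonged to few lists, and several had low levels in all libraries. Alb (albumin) was at 8.88 CPM in the wild type and 0.253 and 0.377 CPM in the labelled knockouts, 35.03- and 23.5-fold lower. Apoa1 was at 1.15, 0.253 and 0.162 CPM and Ahsg (fetuin A) at 1.67, 0 and 0.431 CPM. With Apoa2 these were 4 of 11 measured genes of plasma proteins, beside 0.335% of all callable genes. Other genes of the list were not low. Trf (transferrin), which retinal and epithelial cells make, was at 889, 3564 and 973 CPM, and C3, the complement component, at 62.6, 366 and 39.7 CPM. Fabp1, a fatty acid binding protein of liver and gut, had 20 reads in the wild type and none in either labelled knockout. The lens crystallins Crygf, Cryge and Cryga were at 39.01, 4.16 and 3.40 CPM, at 28.04, 0.253 and 3.02 CPM and at 71.1, 4.97 and 24.2 CPM. They were low in labelled knockout 2 as well, although the lens list as a whole was higher there than in the wild type, with Cryaa (alpha A crystallin) at 21422, 4889 and 28250.2 CPM. Genes of the gamma crystallin family resemble each other, so reads may have been divided among them. Cyp24a1, which breaks down active vitamin D, was at 20.2 CPM in the wild type and 0.253 and 2.37 CPM in the labelled knockouts. Ucp1, the uncoupling protein of brown fat, was at 7.83 and 2.79 CPM in the wild type and labelled knockout 1 and had no read in labelled knockout 2. Wnt2, a secreted signal, was at 3.03, 1.17 and 1.02 CPM, and Kit, the receptor of mast cells and pigment cells, at 71.7, 25.95 and 33.9 CPM. Mast cell proteases did not go with it: Tpsb2 was at 5.64, 12.4 and 5.61 CPM and Cma1 at 3.08, 4.97 and 2.10 CPM.

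**Figure D4:**
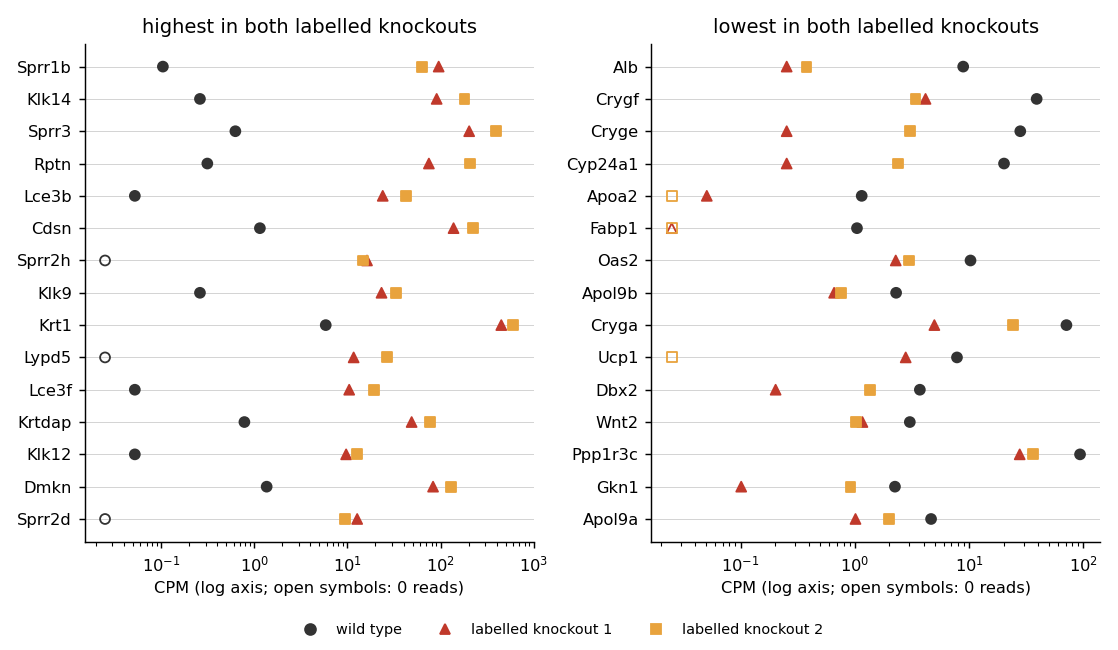
Level of the 15 genes with the largest ratios upward (left) and downward (right) in each adult library (CPM, log axis), ranked by the smaller of the ratios of the labelled knockouts. Open symbols at the left edge mark 0 reads. On the left every wild-type symbol is below 6 CPM, and on the right no labelled knockout exceeds 36.1 CPM.

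Genes of the Egr1 pathway itself held a few calls. Of 40 callable immediate-early genes, 2 were higher (5%) and none lower, beside 1.68% and 0.335% of all genes. Arc, an immediate-early gene of neurons, was at 4.86 CPM in the wild type and 17.99 and 20.7 CPM in the labelled knockouts, with an adjusted p of 0.146 by edgeR. Egr3, a family member, was at 0.679, 4.26 and 1.46 CPM. Egr2 was at 1.10, 4.71 and 1.24 CPM. The corepressor Nab2, which Egr1 switches on, was at 39.2, 25.4 and 25.99 CPM, and Nab1 at 63.7, 66.8 and 89.7 CPM. The AP-1 genes Fos and Junb were at 27.8, 44.96 and 50.5 CPM and at 128, 207 and 228 CPM, above the wild type in both but under 2-fold. Median log2 ratios of the list were 0.31 and 0.27. Of 34 genes reported as Egr1 targets, 4 were higher (Il1b, Ccl2, Gdf15 and Egr3), which is 11.8% beside 1.68% of all genes, and none was lower. Of these 4, Gdf15 alone was at 1 CPM or more in the wild type. The first, the cytokine Il1b, was at 0.366, 8.36 and 3.40 CPM. F3 (tissue factor), a target in vessel walls, was at 91.6, 54.4 and 54.2 CPM, and the matrix protein Thbs1 at 117, 376 and 186 CPM. None of 39 callable genes of eyelid closure and opening was called, beside the same 1.68% and 0.335%, at which few or none would be. Grhl3, an epidermal factor needed for closure, was at 43.8, 53.9 and 91.9 CPM, Egfr at 60.7, 44.96 and 49.9 CPM, and Fgf10, a growth factor of the lid mesenchyme, at 16.7, 2.74 and 16.4 CPM.

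Retinoic acid and glycogen genes held single large differences. Crabp2, which carries retinoic acid to its nuclear receptors and is made in skin, was at 3.24 CPM in the wild type and 31.6 and 39.04 CPM in the labelled knockouts. Its log2 difference was 3.44 ± 0.27 (SE, n = 2 against 1, edgeR adjusted p = 0.0653). Dhrs9, which helps make retinoic acid, was at 0.418, 4.97 and 5.77 CPM, and Cyp26b1, which breaks it down, was lower in both at 35.6, 17.03 and 12.99 CPM. These were the 2 higher and the 1 lower of 23 callable genes, beside 1.68% and 0.335% of all callable genes. Aldh1a3, a synthesis enzyme, was at 94.5, 169.6 and 219 CPM. In glycogen metabolism, Ppp1r3c, which targets protein phosphatase to glycogen, was at 93.5 CPM in the wild type and 27.7 and 36.02 CPM in the labelled knockouts. It was the single call of 26 genes, beside 0.335% of all callable genes that were lower. Gyg (glycogenin), the protein primer of glycogen, was below 2-fold in labelled knockout 2, at 145, 62.7 and 78.1 CPM. Muscle glycogen phosphorylase, Pygm, was at 257, 269 and 107 CPM, low in the library that was also low in muscle. Mt4, the metallothionein of stratified epithelium, had no read in the wild type and was at 4.97 and 10.8 CPM, at least 31.7- and 68.8-fold higher, while the common Mt1 was at 108, 116 and 132 CPM.

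The retinal lists held no call, which is near the share over all genes. None of 38 rod, 17 cone, 20 bipolar, 22 ganglion or 24 amacrine and horizontal cell genes was 2-fold higher or lower in both. Of all callable genes 1.68% were higher and 0.335% lower, so lists of such sizes, here and below, would hold few or no calls at those shares. Rod genes were nonetheless below the wild type in both labelled knockouts in 31 of 38 cases, beside 28.3% of all genes, with median log2 ratios of -0.60 and -0.25, and summed to 72994, 40098 and 59506 CPM. Glial genes differed in labelled knockout 1. Gfap, the filament that Müller glia make when the retina is stressed, was at 71.7, 291.3 and 19.6 CPM, Serpina3n, a marker of reactive glia, at 35.9, 699.8 and 51.5 CPM, and Edn2, made by damaged photoreceptors, at 2.45, 66.8 and 3.29 CPM. Labelled knockout 2 lay below the wild type for Gfap and within 2-fold of it for the others. Cell cycle genes were split, with median log2 ratios of -0.21 and 0.54 and no call among 38. Clock genes had no call among 25 either, and 17 of them were below the wild type in both (beside the same 28.3%), with Dbp, a clock output gene, at 278, 210.0 and 195 CPM. The lists of corneal stroma, pigment epithelium, ciliary body and iris, vessels, glucocorticoid response, hypoxia, sterol synthesis and oxidative phosphorylation held none. Single genes were higher among 35 of matrix (Thbs2) and 24 of stress proteins (Hmox1, which breaks down heme, at 36.9, 92.6 and 74.95 CPM), beside 1.68% of all callable genes. In the lacrimal list 3 of 10 callable genes were higher (Ltf, Wfdc12 and Obp1a), beside 1.68% of all. Of the 8 at 1 CPM or more in the wild type 1 was, beside 0.749%. Of 27 genes of Meibomian gland lipid, 2 were higher, and of 10 of the hair follicle also 2, beside the same 1.68%. Among the latter was Gsdma, a gasdermin of skin, at 0.157, 5.78 and 12.7 CPM.

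Newborn eyes offered a comparison with libraries of their own. Of 15059 genes that could be called there, 1609 (10.7%) were at least 2-fold higher in both newborn labelled knockouts than in both newborn wild types and 866 (5.75%) were at least 2-fold lower. The 250 genes higher in adults included 195 that could be called in newborns, and 91 of these were higher there and none lower (46.7%, beside 10.6% of the 14625 callable genes measured in adults). That is 36.4% of the adult genes and 5.66% of the newborn genes. The 50 genes lower in adults did not show the like: of 27 that could be called in newborns, 7 (25.9%) were higher there and 1 (3.70%) was lower. The shares over genes measured in adults were 10.6% and 5.57%. A gene could be called in newborns through both labelled knockouts alone, and a gene silent in the newborn wild types can only be higher. The newborn shares are thus partly set by that rule. No count was taken over genes at 1 CPM or more in the newborn wild types. Sprr1b was at 0.110 and 0.100 CPM in the newborn wild types and at 11.6 and 24.1 CPM in the newborn labelled knockouts. Krt13 was at 26.3 and 28.9 CPM against 1605 and 853 CPM. Krt1 and Klk14 were less clear in newborns, where the groups nearly met for Krt1 and overlapped for Klk14. Krt1 was at 42.8 and 249.9 CPM against 1035 and 260.1 CPM, and Klk14 at 1.10 and 0 CPM against 11.02 and 0.356 CPM. Egr1 was at 53.4 and 71.1 CPM against 248 and 317 CPM.

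The difference between the adult and the newborn genotype effect was tested gene by gene with edgeR. It was higher in adults for 175 of 17592 genes (0.995%) and lower for 317 (1.8%), at an adjusted p under 0.05. With the authors' library totals the split was 98 and 352. Without newborn wild-type replicate 1, and likewise without replicate 2, no gene passed, so all calls of this test rest on having both. Whole tissue lists were shifted between the newborn groups. Median fitted log2 differences there were -2.25 for rod and -1.79 for ganglion cell genes. They were 3.68 for mucosal, 2.49 for basal epidermis and -0.15 for pigment epithelium genes, beside -0.0004 over all measured genes. The part of this shift in the test and in the newborn counts above was not tested. Several genes with small p in the test differed in newborns and less in adults. Lama3, a laminin chain of the epidermal basement membrane, was at 7.44 and 7.06 CPM in newborn wild types and 97.5 and 78.9 CPM in newborn labelled knockouts, while the adult values were 81.8, 26.4 and 42.4 CPM. It was thus higher in newborn labelled knockouts and below the wild type in adult ones. Its genotype difference was -4.86 ± 0.39 (log2, adult minus newborn, SE, edgeR adjusted p = 0.0307). Neurog2, a factor of neuron formation, was at 126 and 138 CPM against 24.00 and 23.1 CPM in newborns and at 1.46, 2.03 and 1.73 CPM in adults. The adult libraries were thus all low for this gene. Of the 250 higher and 50 lower adult genes, 12 and 10 passed. They were chosen on the adult values that enter this difference, so the sign of it is largely set by that choice. Ltf and Serpinb2, higher in adults, had the larger ratio in newborns. Ppp1r3c, at 15.8 and 18.9 CPM against 18.8 and 21.4 CPM in newborns, where the groups overlapped, differed by -1.77 ± 0.30 (edgeR adjusted p = 0.0426). Cyp26b1 was higher in newborn labelled knockouts (28.1 and 29.05 CPM against 7.66 and 10.8 CPM) and lower in adult ones, a difference of -2.87 ± 0.35 (edgeR adjusted p = 0.0307). Crabp2 was higher at both ages and more so in adults, by 1.57 ± 0.30 (edgeR adjusted p = 0.0475).

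**Figure D5:**
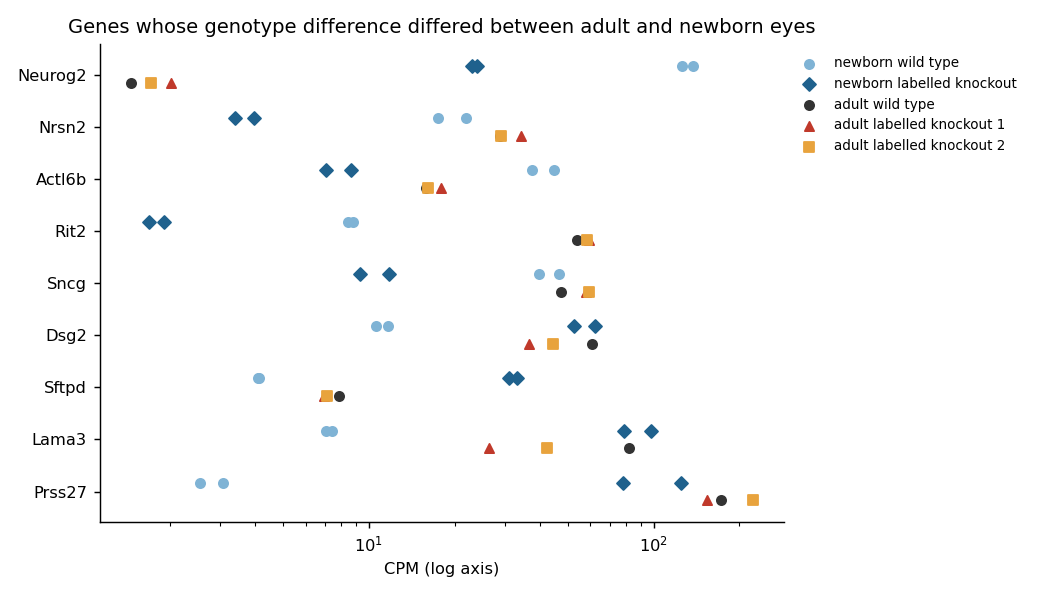
Level in each newborn and adult library (CPM, log axis) of 9 genes among those with the smallest p for a difference between the adult and newborn genotype effects, 4 more negative and 5 more positive in adults. Newborn symbols are drawn above the adult ones. Newborn groups are far apart for all 9 genes, and adult symbols lie close together for most.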

How the data were processed

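Poly(A)+ RNA of eyes was made into libraries that keep no strand, amplified for 18 cycles and sequenced on a HiSeq 2000, per the labels' protocols. The protocols name fixation and RNAlater without saying which applied to sequenced eyes. CASAVA 1.8, Bowtie 0.12.9, TopHat2 2.0.11, SAMtools and build mm8 are named in the submitters' processing notes; counting tool and annotation are not given in the sources used here. The deposited tables hold, per the file headers, read counts for 24373 transcripts (20418 symbols) and the authors' RPKM values, used only to recover library totals, filter an alternative and name genes.

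For each symbol the transcript with the highest mean count over the series was used (2673 symbols had several). Adult and newborn libraries (7) were fitted together in R 4.3.3 with edgeR 4.0.16 (TMM, filterByExpr, quasi-likelihood test, Benjamini-Hochberg adjustment), so that the lone adult wild type is assumed to vary like the other groups. DESeq2 1.42.0 was an alternative. SE is the log2 difference divided by the root of F. Fold changes set reads under 3 to 3; intervals (95%, exact binomial) cover counting error only, and reads without molecular identifiers are not independent molecules. A gene could be called if both labelled knockouts, or the wild type, had at least 1 CPM. Both steps were run on simulated counts with the same spread for all genes and changes in well-read genes only. Genes near the floor of 3 reads were thus not covered.

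Members and 42 gene lists were chosen with earlier results of these data known. Named were Egr1, the 15 genes with the largest ratio in each direction (1 RPKM or more), up to 6 members a list, up to 4 where the labelled knockouts split, and up to 5 a direction for the age difference. Other genes, those in the 4 regions among them, were chosen after their values were seen. Some items that the rule names are not reported here. A muscle cadherin was taken out of the cone list as a wrong entry. RefSeq matched 19698 symbols.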

Additional observations from a re-analysis of the deposited data

Results flagged for a closer look

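For 9 genes the genotype difference was not the same in adult and newborn eyes by edgeR's test of the difference itself (adjusted p of 0.0307 for each). Values are on the log2 scale, as adult minus newborn. The 4 with more negative values in adults were Prss27, a serine protease of stratified epithelia (-5.05), the laminin chain Lama3 (-4.86), the lung and mucosal collectin Sftpd (-3.12) and the desmosomal cadherin Dsg2 (-2.95). The 5 with more positive values were Neurog2 (2.85), Nrsn2 (2.57), Actl6b (2.48), Rit2 (2.38) and Sncg (2.35), all but Neurog2 known from mature neurons. In newborn eyes each of the first 4 was at least 4-fold higher in both labelled knockouts than in both wild types, and each of the other 5 was lower. In adults Lama3 had the largest ratio of the 9, at 81.8, 26.4 and 42.4 CPM in the wild type and labelled knockouts 1 and 2. Prss27 was at 173, 154 and 222 CPM and Sncg at 47.2, 58.04 and 59.5 CPM. All 9 lost their call without newborn wild-type replicate 1 and without replicate 2.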

How the results depend on the processing

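No paired analysis was possible because the adult wild type is 1 library with no replicate number. The count of 0 adult genes passing edgeR became 33 with the authors' library totals, 13 with no filter on low counts and 102 by DESeq2. It ranged from 0 to 205 when 1 library was left out, 49 without labelled knockout 1 and 205 without labelled knockout 2, where 1 library stood against 1 and was assumed to vary like the newborn groups. Without newborn labelled knockout 1 it was 13, and without newborn labelled knockout 2 it was 3. Size factors, the sum of all transcripts, a mean of 5 RPKM, scaling without lens, rod and muscle genes, a fit of the 3 adult libraries, and the fits without a newborn wild type gave 0. The 250 genes higher in both became 484 at 1.5-fold, 121 at 4-fold and 116 at a 5 CPM minimum, and 444 or 880 with labelled knockout 2 or 1 alone. The 50 lower became 175, 10 and 21, and 285 or 353. The other scalings and the sum of transcripts gave 237 to 255 higher and 37 to 62 lower. Of the 250, 229 were kept with the authors' library totals, which move every ratio of labelled knockout 1 by 0.168 (log2). The 492 genes of the age difference became 2131 by DESeq2 and ranged from 0 to 1613 when 1 library was left out: 0 without newborn wild-type replicate 1 or 2, 109 and 1346 without newborn labelled knockout 1 or 2, 1400 and 1613 without adult labelled knockout 1 or 2. No named gene that met the 2-fold rule changed side under another scaling. Egr1 passed by DESeq2 (adjusted p = 2.23e-14) and, by edgeR, without labelled knockout 1 (adjusted p = 0.0342) or 2 (adjusted p = 0.009); its adjusted p was 0.0556 to 0.525 in the other alternatives. Of 135 counts of list members under alternatives, 99 were within 1.5 times. Wild-type reads of 0 to 3 limit the size of ratios for 38 of the higher genes.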

Other observations

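Some enzymes that make the lipid barrier of the epidermis, a group picked after the values were seen, were among the genes higher in both labelled knockouts. Alox12b, Aloxe3 and Abca12 are also members of the cornified epidermis list. Alox12b, the lipoxygenase that starts the oxidation of barrier ceramides, was at 2.40 CPM in the wild type and 35.1 and 47.5 CPM in the labelled knockouts, and Aloxe3, which acts after it, at 2.82, 8.77 and 8.90 CPM. The lipid transporter Abca12 was at 0.888, 4.76 and 5.23 CPM, the ceramide hydroxylase relative Cyp4f39 at 1.51, 12.98 and 15.7 CPM and Sdr9c7, a dehydrogenase of the same route, at 7.83, 16.8 and 31.7 CPM. Sult2b1, which makes cholesterol sulfate, was at 1.83, 10.3 and 12.2 CPM. Pnpla1, which attaches linoleate to ceramides, had no read in the wild type and was at 5.37 and 8.14 CPM. Other lipid genes of the layer were not called. Elovl4, which lengthens the fatty acids of ceramides, was at 277, 225 and 281 CPM, and the lipases Lipk and Lipm were at 2.56, 2.08 and 5.39 CPM and at 19.1, 13.7 and 28.9 CPM.

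Some genes of myelin were among the lower ones, also picked after the values were seen. Mag, a myelin adhesion protein, was at 6.68, 2.94 and 1.02 CPM and Mog, on the outer face of central myelin, at 2.04, 0.406 and 0.216 CPM in the wild type and labelled knockouts 1 and 2. Myelin genes did not all follow: Mbp was at 151, 114 and 142 CPM and Cnp at 28.2, 35.6 and 21.6 CPM. The ribosomal gene Rps2, counted at 0.574, 1.17 and 33.1 CPM, met the 2-fold rule with labelled knockout 2 far from the other libraries. It has many processed copies in the genome, so its counts are uncertain.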
